A study of Homo sapiens with 18 samples.

Results

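The 8 genes described here code for proteins of the red cell membrane or carry blood group antigens: GYPB, GYPC, GYPE, RHAG, RHCE, EPB41, EPB42 and ANK1. They were picked by name, with the difference between the 2 cell lines of the study already known, and all 8 were among the 26249 genes measured. The study treated XG1 and AMO1, both given as multiple myeloma cell lines, for 24 h with the vehicle DMSO or with 100 nM or 1000 nM YKL-5-124, an inhibitor of the transcription and cell cycle kinase CDK7. The 6 groups were therefore XG1 in DMSO, at 100 nM and at 1000 nM, and AMO1 in DMSO, at 100 nM and at 1000 nM. Each had 3 replicates, 18 QuantSeq 3' libraries in all, from cells grown in plates in medium with serum. Every group is 1 established line with no genetic change given.

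The red cell membrane is a lipid bilayer held to a spectrin mesh on its inner face. Ankyrin-1 (ANK1) ties the anion exchanger SLC4A1 to spectrin, and EPB42 steadies that link. EPB41 anchors glycophorin C (GYPC) to the junctions where spectrin meets actin. The Rh complex, built on RHAG, carries the Rh antigens of RHCE and RHD, and the glycophorins carry the MNS and Gerbich antigens. Most of these genes are switched on during erythroid maturation, under the transcription factors GATA1 and KLF1, whereas GYPC and EPB41 are also used by other cells.

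The sequences just before the gene starts are shown for 5 genes, because GYPB, GYPE and RHAG were high in XG1 and low in AMO1, RHCE changed with the inhibitor in XG1, and GYPC was on in both lines. Each is the 250 bases before a RefSeq gene start (build GRCh38.p14), read in the direction of the gene. Capitals mark the motif searched on both strands, GATA with A or T before it and A or G after it, which reads TATC on the other strand with T or C before it and A or T after it.
GYPB (chr4:144019381-144019630, minus strand): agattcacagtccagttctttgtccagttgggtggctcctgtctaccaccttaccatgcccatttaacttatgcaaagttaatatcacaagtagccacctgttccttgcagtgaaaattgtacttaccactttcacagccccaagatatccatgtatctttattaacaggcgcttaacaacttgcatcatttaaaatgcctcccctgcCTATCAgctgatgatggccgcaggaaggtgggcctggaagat
GYPE (chr4:143905560-143905809, minus strand): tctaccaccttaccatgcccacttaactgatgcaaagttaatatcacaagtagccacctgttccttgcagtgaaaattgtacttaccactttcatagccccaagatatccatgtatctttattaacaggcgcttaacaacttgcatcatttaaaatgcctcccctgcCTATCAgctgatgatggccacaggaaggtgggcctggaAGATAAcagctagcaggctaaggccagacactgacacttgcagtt
RHAG (chr6:49636840-49637089, minus strand): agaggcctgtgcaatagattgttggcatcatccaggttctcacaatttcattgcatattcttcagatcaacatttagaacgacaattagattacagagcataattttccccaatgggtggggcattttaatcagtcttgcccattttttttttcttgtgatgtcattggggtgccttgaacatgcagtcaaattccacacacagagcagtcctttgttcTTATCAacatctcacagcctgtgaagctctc
RHCE, its second listed start (chr1:25420826-25421075, minus strand): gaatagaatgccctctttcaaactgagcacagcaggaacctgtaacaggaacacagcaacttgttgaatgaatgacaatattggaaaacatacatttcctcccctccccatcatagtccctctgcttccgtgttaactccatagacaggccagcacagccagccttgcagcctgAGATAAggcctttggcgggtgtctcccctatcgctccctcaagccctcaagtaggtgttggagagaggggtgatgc
GYPC (chr2:126655908-126656157, plus strand): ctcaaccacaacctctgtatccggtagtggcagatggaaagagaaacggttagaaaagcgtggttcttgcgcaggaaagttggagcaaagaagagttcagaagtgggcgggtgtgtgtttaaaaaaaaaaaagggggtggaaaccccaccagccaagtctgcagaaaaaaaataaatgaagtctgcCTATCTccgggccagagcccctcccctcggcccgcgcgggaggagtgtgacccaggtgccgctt

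The GYPE window and that of the second listed GYPB start, not shown, were 98.0% identical over 244 aligned bases, with 5 mismatches. The shown GYPB and GYPE windows both held the match written CTATCA. The GYPE window, which reaches further into the shared stretch, held AGATAA as well. The RHAG match lay 31 bases before the gene start, the GYPC match 64 bases and the shown RHCE match 76 bases. The first listed RHCE start had no match, and the window of the second GYPB start held 2 matches. Of the members not shown, 1 of the 2 EPB41 windows held 1 match and the EPB42 window held 2, while ANK1 is named only. The same letters stood in 22.3% of the 35116 windows of this length in the RefSeq table, which cover 27305 genes. A match describes letters and is no evidence that a factor binds there.

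The values were FPKM, a level per gene length and library. Their sums over all genes were 431965 to 1553910 per library, and the ERCC spike-ins summed to 166717 to 187657. Relative to DMSO the group means of the gene sum were 81.0% at 100 nM and 73.3% at 1000 nM in XG1, and 62.2% and 39.6% in AMO1. The sources used here give no read depth, so the precision comes from the replicates alone. Spearman correlations across genes between libraries of 1 group ran from 0.817 to 0.973. No value was 0. The most frequent value of a library, 0.0711 to 0.158 FPKM, is called its floor, though single values lay under it, down to 0.0444 FPKM. Because 3' libraries give about 1 read per transcript whatever its length, levels of different genes are not compared, apart from a ratio of GYPE to GYPB that is read between libraries only. The labels do not say that replicates were separate cultures, so p-values measure only the spread between these samples.

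In DMSO most marker genes of the labelled cell type were lower in XG1 than in AMO1. Of 12 plasma cell markers 6 averaged at least 1 FPKM in XG1 in DMSO and 10 did in AMO1, and their summed levels were 93.5 to 146 FPKM in XG1 against 8363 to 9397 FPKM in AMO1. Of 18 erythroid markers 17 averaged at least 1 FPKM in XG1 and 6 did in AMO1, with sums of 3988 to 4400 FPKM against 245 to 292 FPKM. Such sums are carried by the highest genes, and single markers went the other way. In DMSO the erythroid HBE1 averaged 106 FPKM in AMO1 and 67.2 FPKM in XG1. The plasma cell list's CD79A averaged 1.19 FPKM in XG1 and 0.134 FPKM in AMO1. Of the same list, XBP1 and SDC1 were present in XG1 but lower than in AMO1. XBP1 averaged 82.6 FPKM against 214 FPKM, and SDC1 24.2 FPKM against 5067 FPKM. In XG1, 4 of 8 myeloid and progenitor markers and 2 of 7 megakaryocyte markers averaged at least 1 FPKM in DMSO. The myeloid sum was 127 to 150.2 FPKM and the megakaryocyte sum 3.60 to 8.63 FPKM, and GP9 and PPBP stood at or under the floor in every library. The assignment of libraries to lines follows the labels.

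Of the 8 genes, 4 were present in XG1 and at 1.33 FPKM or less in AMO1 (GYPB, GYPE, RHAG and RHCE), and ANK1 was present in XG1 and low in AMO1. GYPC was present in both lines, EPB41 values were low in both, and EPB42 stood at the floor in all 18 libraries. In DMSO GYPC averaged 331 FPKM in AMO1 and 164 FPKM in XG1. In the same order it averaged 176 and 168 FPKM at 100 nM, and 127 and 153 FPKM at 1000 nM. These levels by line describe how the genes were picked and carry no test. In AMO1, GYPB ran from 0.0657 to 1.33 FPKM over the 9 libraries, GYPE from 0.0603 to 0.489, RHAG from 0.0595 to 0.289, RHCE from 0.0733 to 0.945 and ANK1 from 1.21 to 2.23. In a bulk library, fewer cells with a transcript and less of it per cell cannot be told apart.

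**Figure D1:**
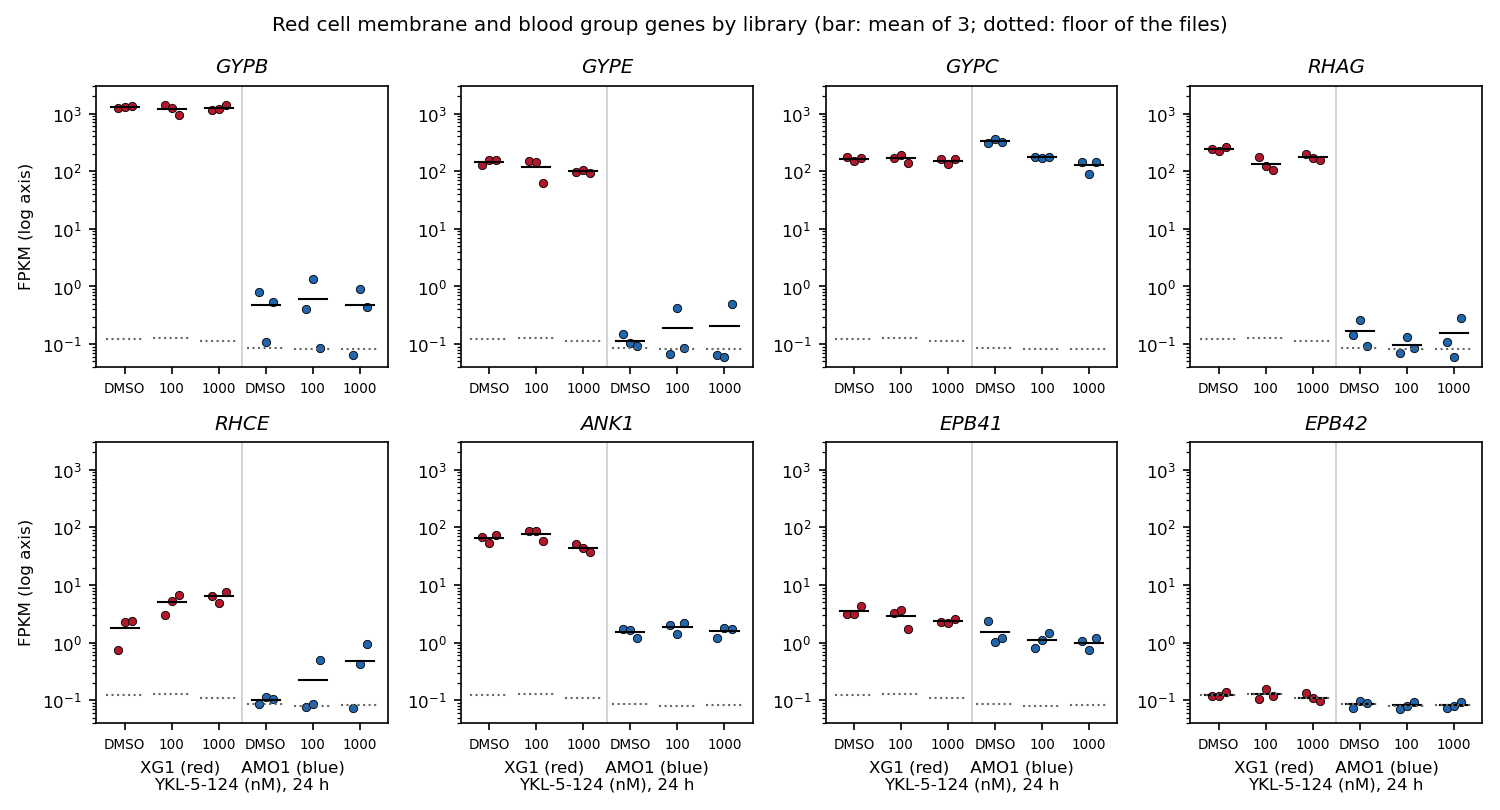
FPKM of the 8 genes in each of the 18 libraries (log axis), by line and dose; points are libraries, bars are means of 3 and dotted lines the mean floor of the group. GYPB, GYPE and RHAG are high in the XG1 libraries and low in AMO1, GYPC is high in both lines, and EPB42 lies on the floor throughout.

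Changes with the inhibitor were tested across the 9 libraries of a line, on log2(FPKM + 1), with limma and Benjamini-Hochberg adjustment over all genes tested. A gene entered when 3 or more of those libraries reached 1 FPKM, and an adjusted p under 0.05 is a call. Statements that the libraries of 1 group lay wholly under or above those of another are description only. The share of all genes that separate in this way was not counted. In XG1 7 of the 8 genes passed this filter, all but EPB42. In AMO1 3 passed, GYPC, ANK1 and EPB41, so the other 5 have no test there. The median of all genes changed by log2 −0.15 in XG1 at either dose and by −0.35 at 100 nM and −0.77 at 1000 nM in AMO1. Changes are therefore also given after dividing by median-ratio size factors, as values on the relative scale.

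In XG1, RHCE rose at both doses and RHAG fell at 100 nM, while the glycophorins, ANK1 and EPB41 passed the test at neither dose on the deposited scale. At 1000 nM 1 of 7 genes rose and 0 fell, against 3.69% higher and 13.2% lower of all 11810 genes tested. At 100 nM 1 rose and 1 fell, against 2.48% higher and 10.0% lower. With 7 genes tested, a single call in a direction is too few to set apart from these shares. The median change of the 7 genes was log2 −0.44 at 1000 nM and −0.12 at 100 nM. Between 1000 nM and 100 nM none of the 7 was called, against 0.39% of all genes.

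The glycophorins come first. GYPB, which carries the S and s antigens, had 1256, 1293 and 1357 FPKM in DMSO, 1429, 1263 and 959.5 FPKM at 100 nM, and 1162, 1218 and 1379 FPKM at 1000 nM in XG1. The 3 groups overlapped, and the lowest library was 100 nM replicate 3. The log2 change was −0.06 at 1000 nM (95% interval −0.38 to 0.26, adjusted p = 0.829) and −0.12 at 100 nM (adjusted p = 0.646), and it was above 0 on the relative scale, 0.13 and 0.08. These intervals leave room for changes of either sign, so GYPB is not shown to be unaffected.

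GYPE, the neighbouring gene that arose by duplication, had 127, 156 and 155 FPKM in DMSO, 149, 144 and 62.7 FPKM at 100 nM, and 95.95, 106 and 94.1 FPKM at 1000 nM in XG1. All 3 libraries at 1000 nM lay under the DMSO libraries, while 100 nM spread widely, with replicate 3 low. The change at 1000 nM was log2 −0.55 (SE 0.27, adjusted p = 0.192) and did not pass, except without 100 nM replicate 3 (adjusted p = 0.00961). The level of GYPE as a percentage of GYPB was 10.1, 12.1 and 11.4 in DMSO, 10.5, 11.4 and 6.53 at 100 nM, and 8.26, 8.73 and 6.83 at 1000 nM. This ratio was also lowest in 100 nM replicate 3.

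GYPB and GYPE are close copies, so their reads could be exchanged. In the last 300 bases of their annotated transcripts (GENCODE v29), 2.39% to 6.37% of 50-base stretches of GYPB and 0% to 2.39% of those of GYPE occurred word for word in another gene.

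GYPC carries the Gerbich antigens and binds EPB41. In XG1 it had 174, 149 and 168 FPKM in DMSO, 169.5, 193 and 141 FPKM at 100 nM, and 159, 134 and 164 FPKM at 1000 nM. The groups overlapped on this deposited scale, and the change was log2 −0.10 at 1000 nM (95% interval −0.42 to 0.21, adjusted p = 0.685) and 0.03 at 100 nM (adjusted p = 0.924). On the relative scale GYPC changed by log2 0.08 at 1000 nM (adjusted p = 0.634) and 0.22 at 100 nM (adjusted p = 0.189). In AMO1 it had 311, 368 and 315 FPKM in DMSO, 179, 170 and 178 FPKM at 100 nM, and 146, 90.2 and 146 FPKM at 1000 nM. Every treated AMO1 library lay under every DMSO library.

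The fall of GYPC in AMO1 was log2 −1.40 at 1000 nM (SE 0.22, adjusted p = 7.9e-05) and −0.91 at 100 nM (SE 0.22, adjusted p = 0.00663). On the deposited scale it was the only call among the 3 genes tested at either dose, in a line where 65.7% of 10503 genes were called lower and 2.51% higher at 1000 nM, and 29.5% lower and 2.73% higher at 100 nM. The GYPC mean at 1000 nM was 38.5% of its DMSO mean, next to 39.6% for the sum of all genes. On the relative scale GYPC still fell, by log2 −0.42 at 1000 nM (adjusted p = 0.000354) and −0.47 at 100 nM (adjusted p = 0.000384), where 24.2% and 17.1% of genes were called lower. Relative values in AMO1 averaged 293 ± 3.39 in DMSO, 217 ± 10.9 at 100 nM and 225 ± 4.64 at 1000 nM (n = 3 each), so the doses differed by less than the spread between replicates at 100 nM. Between 1000 nM and 100 nM the change was −0.49 (adjusted p = 0.0942), or 0.05 on the relative scale. None of the 3 genes was called there, against 23.6% of all genes.

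**Figure D2:**
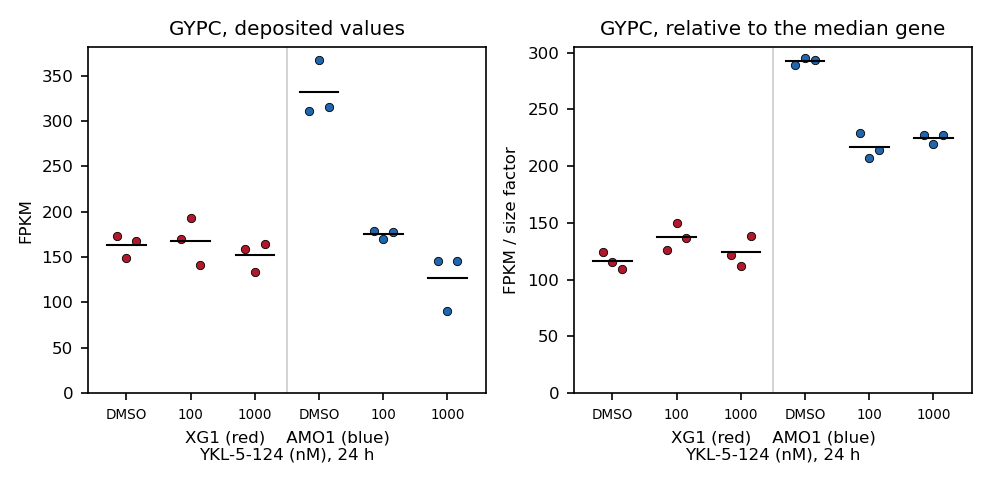
GYPC in the 18 libraries as deposited (left, FPKM) and divided by the library's size factor, taken over all 18 libraries (right). Points are libraries and bars means of 3. In AMO1 the treated libraries lie under the DMSO libraries in both panels, and in XG1 the 3 groups overlap on the deposited scale. In the right panel the XG1 libraries at 100 nM lie above those in DMSO, a change that was not called.

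The response of GYPC differed between the lines. The XG1 change minus the AMO1 change was log2 1.30 at 1000 nM (SE 0.25, adjusted p = 0.00107) and 0.94 at 100 nM (SE 0.25, adjusted p = 0.0328), from a fit of all 18 libraries. Of 12792 genes, 32.8% had such a difference called above 0 and 1.5% under 0 at 1000 nM, and 5.37% and 0.86% at 100 nM. On the relative scale the differences were 0.46 (adjusted p = 0.0145) and 0.67 (adjusted p = 0.00211), beside 8.47% and 5.94% of genes. The call at 100 nM on the deposited scale was lost in 11 of 18 fits that left out 1 library (adjusted p 0.00221 to 0.0991), and the one at 1000 nM in none of the 18 (adjusted p 0.000464 to 0.00458). GYPC, ANK1 and EPB41 passed the filter in both lines, and of these 3 GYPC was the only one called in this comparison at either dose on the deposited scale. GYPB, GYPE, RHAG and RHCE entered that fit through XG1 alone, so their line differences are not read.

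At 100 nM the Rh genes RHAG and RHCE moved in opposite directions in XG1. RHAG, the glycoprotein that the Rh complex needs to reach the surface and that passes ammonium, had 238, 221 and 267 FPKM in DMSO, 175, 121 and 105 FPKM at 100 nM, and 201, 170 and 156 FPKM at 1000 nM. Every treated library lay under every DMSO library, and the 100 nM mean was lower than the 1000 nM mean. RHAG fell at 100 nM by log2 −0.88 (SE 0.18, adjusted p = 0.0115; −0.69 on the relative scale, adjusted p = 0.0102), and this was lost without DMSO replicate 3 (adjusted p = 0.0539). At 1000 nM the change was −0.46 (SE 0.18, adjusted p = 0.110), which passed without 100 nM replicate 1 (adjusted p = 0.0377). The 2 doses differed by 0.42 (1000 nM minus 100 nM, adjusted p = 0.444), so an order of the doses is not shown.

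RHCE, which carries the C, c, E and e antigens, had 0.739, 2.23 and 2.32 FPKM in DMSO, 2.99, 5.22 and 6.75 FPKM at 100 nM, and 6.38, 4.88 and 7.68 FPKM at 1000 nM in XG1. All 6 treated libraries lay above the DMSO libraries. The mean was 3.57 times the DMSO mean at 1000 nM and 2.82 times at 100 nM. RHCE rose by log2 1.44 at 1000 nM (SE 0.32, adjusted p = 0.0115; 1.57 on the relative scale, adjusted p = 0.0126) and by 1.12 at 100 nM (SE 0.32, adjusted p = 0.0445; 1.26 on the relative scale, adjusted p = 0.0398). Its level was low, and 2 of the 3 DMSO libraries reached the filter of 1 FPKM, against all 6 treated ones. The call at 1000 nM held in all 9 fits that left out 1 library (adjusted p 0.00825 to 0.0475) but not with every gene tested (0.0588). The call at 100 nM was lost in 8 of those 9 fits (0.0189 to 0.152).

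RHCE shares sequence with RHD and lies against TMEM50A on the opposite strand, with 113 exon bases in common, 5.26% of the RHCE exons. Across 7 annotated RHCE transcripts, 6.37% to 56.2% of the 50-base stretches in the last 300 bases also occurred in another gene (median 46.6%). The sources used here do not say whether the counting used strand, so reads of these genes are not told apart with certainty. RHD averaged 0.326 FPKM in DMSO, 0.399 FPKM at 100 nM and 0.384 FPKM at 1000 nM in XG1 and did not pass the filter. TMEM50A averaged 48.1 ± 11.4 FPKM in DMSO, 33.4 ± 10.6 FPKM at 100 nM and 41.9 ± 6.17 FPKM at 1000 nM, a log2 change of −0.18 at 1000 nM (adjusted p = 0.648) and −0.53 at 100 nM (adjusted p = 0.149). The part of shared reads in the change of RHCE was not tested.

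**Figure D3:**
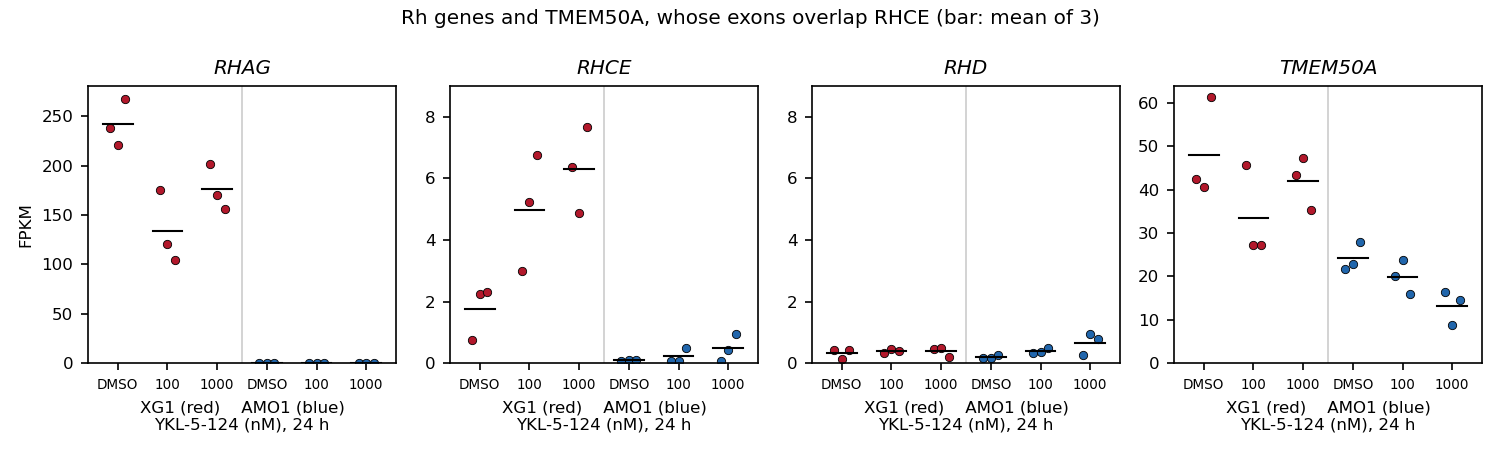
FPKM of RHAG, RHCE, RHD and TMEM50A by line and dose; points are libraries and bars means of 3. In XG1 the treated libraries lie under DMSO for RHAG and above DMSO for RHCE, RHD stays under 1 FPKM, and the TMEM50A groups overlap.

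In AMO1, RHCE had 0.0867 to 0.115 FPKM in DMSO, 0.0770 to 0.507 FPKM at 100 nM and 0.0733 to 0.945 FPKM at 1000 nM, all under the filter. RHD, which shares sequence with RHCE, averaged 0.1955 FPKM in DMSO, 0.401 FPKM at 100 nM and 0.665 FPKM at 1000 nM in AMO1. RHAG and RHD were under the filter in every AMO1 library as well. Whether the changes of RHAG and RHCE are particular to XG1 therefore cannot be told from these libraries.

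Among the skeleton genes, ANK1 had 66.9, 52.6 and 74.0 FPKM in DMSO, 85.3, 87.9 and 57.8 FPKM at 100 nM, and 51.9, 42.9 and 36.7 FPKM at 1000 nM in XG1. The libraries at 1000 nM lay under all the others, and those at 100 nM overlapped DMSO. The change was log2 −0.55 at 1000 nM (SE 0.20, adjusted p = 0.0843, or 0.0421 without 100 nM replicate 3) and 0.24 at 100 nM (adjusted p = 0.456). The doses differed by −0.79 (1000 nM minus 100 nM, SE 0.20, adjusted p = 0.169). On the relative scale ANK1 was called higher at 100 nM than in DMSO (0.44, adjusted p = 0.0445) and lower at 1000 nM than at 100 nM (−0.80, adjusted p = 0.0195), beside 7.31% and 0.804% of all genes called in those directions. RHAG was the gene called lower at 100 nM on that scale, where 7.25% of all genes were.

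In AMO1, ANK1 averaged 1.51 ± 0.255 FPKM in DMSO, 1.89 ± 0.436 FPKM at 100 nM and 1.57 ± 0.310 FPKM at 1000 nM. Its log2 change at 1000 nM was 0.03 (adjusted p = 0.884) on the deposited scale and 0.64 (adjusted p = 0.0323) on the relative scale, where 24.0% of genes were called higher. Divided by size factors taken over all 18 libraries, the 3 AMO1 values at 1000 nM were 1.895, 4.35 and 2.66. The highest was that of replicate 2, the library with the lowest gene sum of all, 431965. The difference in response between XG1 and AMO1 at 1000 nM was −0.58 (adjusted p = 0.117), or −1.08 on the relative scale (adjusted p = 0.0114), where 8.22% of genes were called in that direction. A level close to 1 FPKM in AMO1 compresses its change on this scale.

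EPB41 had 3.18, 3.14 and 4.31 FPKM in DMSO, 3.21, 3.73 and 1.70 FPKM at 100 nM, and 2.27, 2.19 and 2.53 FPKM at 1000 nM in XG1. The libraries at 1000 nM lay under those in DMSO, and the change of log2 −0.44 (SE 0.25, adjusted p = 0.274) did not pass. In AMO1 it had 2.35, 1.04 and 1.20 FPKM in DMSO and 0.736 to 1.46 FPKM in the treated libraries, with a change of −0.31 at 1000 nM (adjusted p = 0.216). EPB41 shares 619 exon bases with TMEM200B on the opposite strand. Of its 25 annotated transcripts, 9 shared stretches of their last 300 bases with another gene. The shared part reached 100.0% in transcripts such as EPB41-201, all of it with TMEM200B. Whether the counting used strand is not given, so reads of EPB41 and TMEM200B are not told apart with certainty. The part of such reads in the EPB41 level was not tested. TMEM200B itself averaged 161, 182 and 183 FPKM in DMSO, at 100 nM and at 1000 nM in XG1. EPB42 had 0.0954 to 0.158 FPKM in XG1 and 0.0711 to 0.0971 FPKM in AMO1, the floor of each library. SLC4A1, the anion exchanger that EPB42 and ANK1 bind, was likewise near the floor, from 0.0954 to 0.158 FPKM in XG1.

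**Figure D4:**
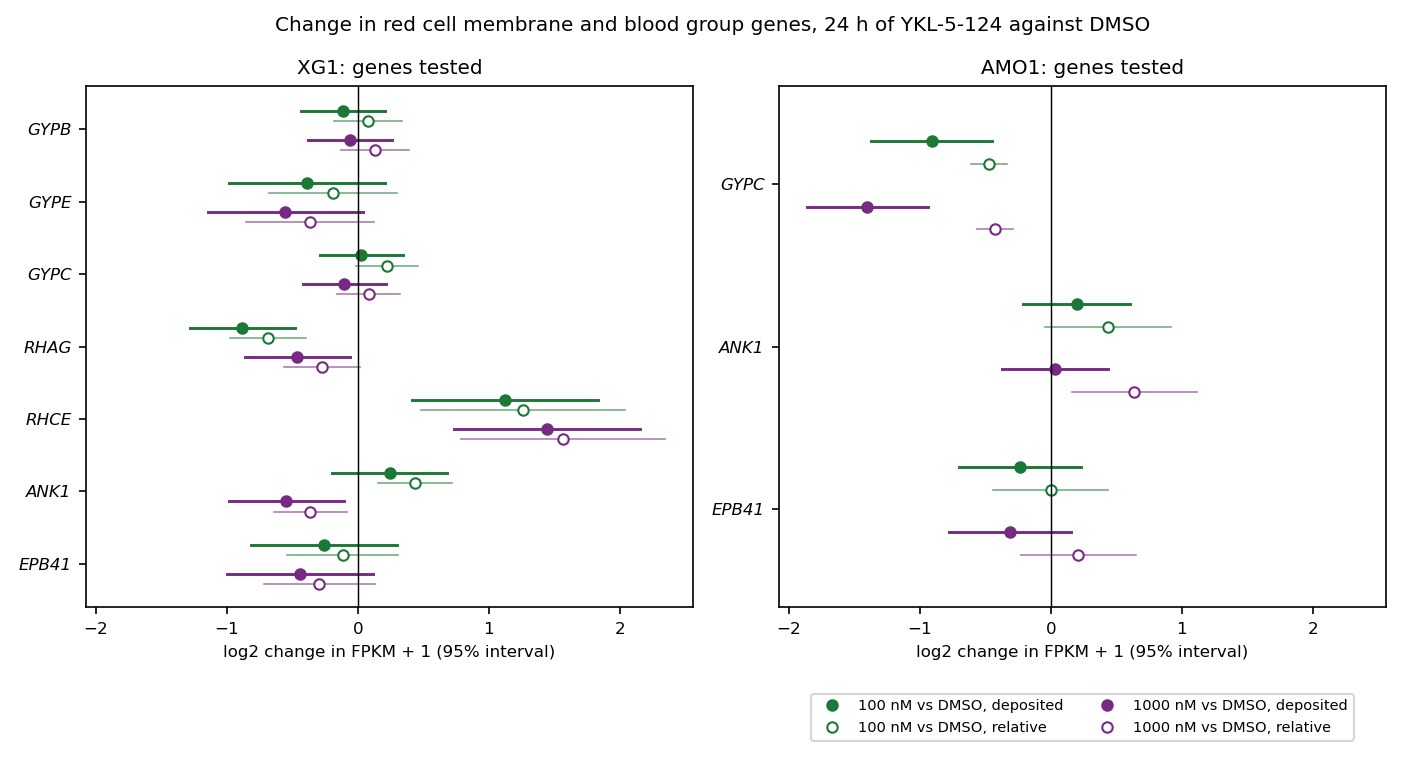
Change of log2(FPKM + 1) at 100 nM (green) and 1000 nM (purple) against DMSO, for the genes tested in XG1 (left) and AMO1 (right); filled points are the deposited scale, open points the relative scale, and lines are 95% intervals. RHCE lies above 0 at both doses and RHAG under 0 at 100 nM in XG1, and GYPC lies under 0 at both doses in AMO1.

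The 5 genes of at least 10 FPKM in XG1 varied together to unlike degrees across its 9 libraries, and r was above 0 for every pair. Pearson's r of log2(FPKM + 1) was 0.79 between GYPB and GYPE, 0.64 between GYPC and ANK1, and 0.02 between RHAG and ANK1. GYPE had 0.59 with RHAG, 0.53 with GYPC and 0.52 with ANK1. GYPB had 0.53 with RHAG, 0.50 with GYPC and 0.16 with ANK1, and GYPC had 0.09 with RHAG. Among the 6009 genes searched, the most similar were TROVE2 for GYPB (r = 0.97), KIF2A for GYPE (0.96), LINC01311 for GYPC (0.94), SEP15 for RHAG (0.99) and POLA2 for ANK1 (0.97). The next for RHAG was ANXA1 (0.98), which averaged 84.6 FPKM in XG1 and 0.208 FPKM in AMO1. These r describe 9 libraries of 3 dose groups that share scaling and depth, and each is the highest of many.

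Other genes of the red cell membrane were counted in a list of 49, of which 31 passed the filter in XG1. At 1000 nM 0 rose and 2 fell on the deposited scale, against 3.69% higher and 13.2% lower of all genes, and the median change was log2 0.02, against −0.15 over all of them. ADD2, an adducin subunit that caps actin at the spectrin junctions, had 12.8, 7.95 and 9.54 FPKM in DMSO, 4.88, 5.45 and 2.94 FPKM at 100 nM, and 3.18, 2.57 and 2.43 FPKM at 1000 nM. Every treated library was lower, and ADD2 fell by log2 −1.56 at 1000 nM (SE 0.25, adjusted p = 0.00205). AQP1, the water channel with the Colton antigens, fell to 0.894 FPKM at 1000 nM, against 2.88 FPKM in DMSO (log2 −1.05, adjusted p = 0.0180).

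SPTB, the beta spectrin of red cells, averaged 2.10, 2.06 and 2.26 FPKM in DMSO, at 100 nM and at 1000 nM in XG1, with a change of 0.06 at 1000 nM (adjusted p = 0.893). At 100 nM 1 of the 31 rose and 1 fell, against 2.48% higher and 10.0% lower of all genes. On the relative scale 4 rose and 2 fell at 1000 nM, against 9.57% higher and 10.3% lower of all genes. The 4 higher ones were XK (the Kell partner), BSG (Ok antigen), SEMA7A (John Milton Hagen antigen) and ABCB6 (Langereis antigen).

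**Figure D5:**
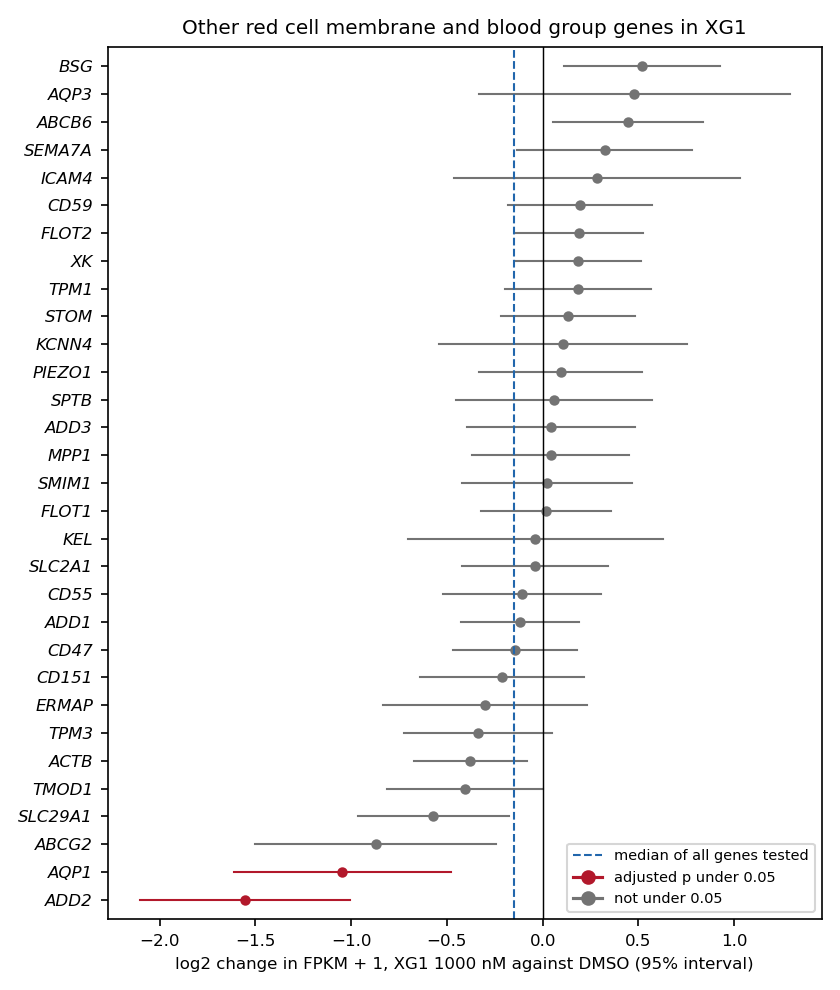
Change of log2(FPKM + 1) in XG1 at 1000 nM against DMSO for the 31 tested genes of the list of other red cell membrane and blood group genes, with 95% intervals; the dashed line is the median of all genes tested. ADD2 and AQP1 are called lower, and the other 29 genes have adjusted p of 0.05 or more.

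In AMO1 23 of the 49 passed the filter, and 0 rose and 17 fell at 1000 nM, where 2.51% of all genes were called higher and 65.7% lower. The median change was log2 −0.90, against −0.77 for all genes. There were 7 rises and 5 falls on the relative scale, where 24.0% of all genes were called higher and 24.2% lower. These counts lie near the shares of all genes. Of 13 homologues used outside the red cell, 7 passed in XG1 and none was called at 1000 nM, where 13.2% of all genes were called lower. In AMO1 5 passed and 3 were lower, EPB41L2, EPB41L4A and SPTBN1, where 65.7% of all genes were.

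Some of the erythroid markers fell in XG1, while others were not called. Their summed level was 3988 to 4400 FPKM in DMSO, 2362 to 2769 FPKM at 100 nM and 2413 to 2772 FPKM at 1000 nM. Of 17 tested, 9 fell and 0 rose at 1000 nM, against 13.2% lower and 3.69% higher of all genes, and 7 fell and 0 rose at 100 nM, against 10.0% and 2.48%. Relative to the size factors 9 fell and 2 rose at 1000 nM, against 10.3% and 9.57%, and 7 fell and 1 rose at 100 nM, against 7.25% and 7.31%. The 2 that rose there were GATA1 and NFE2, and at 100 nM it was NFE2. KLF1, the erythroid transcription factor, had 94.5, 91.6 and 113 FPKM in DMSO, 53.0, 50.2 and 44.0 FPKM at 100 nM, and 32.2, 27.5 and 29.9 FPKM at 1000 nM (log2 −1.70 at 1000 nM, adjusted p = 5.5e-05). GATA1 had 31.2, 31.2 and 30.3 FPKM in DMSO, 28.7, 39.6 and 23.6 FPKM at 100 nM, and 51.1, 34.9 and 43.9 FPKM at 1000 nM (0.46 at 1000 nM, adjusted p = 0.139). The part of these markers in the changes of RHAG and ADD2 was not tested.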

How the data were processed

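The deposited values were FPKM per gene in each of the 18 libraries, made by the authors with HISAT2 and Cuffnorm on hg19, per the submitters' processing notes; their versions are not stated in the material at hand. The even spike-in sums look as if the FPKM had been rescaled to the ERCC spike-ins, a step read from the values. Depth could not be recovered from them.

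The 8 genes, the other lists and the tests were chosen with earlier results of these data known. Values were fitted as log2(FPKM + 1) with limma 3.58.1 (R 4.3.3; two-sided moderated test, variance prior with a trend on expression), keeping a gene when 3 or more libraries of its fit reached 1 FPKM. Fits used the 9 libraries of a line, or all 18 for the difference between lines (XG1 minus AMO1), with Benjamini-Hochberg adjustment over all genes and a threshold of 0.05. The scripts were tested on simulated data. A fold change on this scale understates the change of low genes.

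The list of other red cell genes leaves out 2 genes not reported here. Named outside the 8 were RHD, SLC4A1 and SPTB, up to 3 called rises and 3 called falls of the list at 1000 nM in XG1, and the genes most like a member. Genes overlapping a member and the named markers were chosen after their values were seen, as were the genes called on the relative scale. Alternatives were a pseudocount of 0.1, no filter, the relative scale, a replicate block, a prior without trend and leaving out each library. Promoters came from RefSeq (GRCh38.p14) for 7 of the 8 genes, and transcripts from GENCODE v29; no coordinates of the hg19 files were used.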

Additional observations from a re-analysis of the deposited data

Results flagged for a closer look

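The response of GYPC differed between the lines by a test of the difference itself. The XG1 change minus the AMO1 change was log2 1.30 at 1000 nM (1.299 before rounding, adjusted p = 0.00107 by limma) and 0.94 at 100 nM (0.9353, adjusted p = 0.0328). At 1000 nM all 3 AMO1 libraries lay under their DMSO libraries, and the XG1 groups overlapped. At 1000 nM 32.8% of all genes were called in the same direction, and at 100 nM 5.37%.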

How the results depend on the processing

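Against DMSO, 1994 genes were called in XG1 at 1000 nM, 1474 at 100 nM and 46 between the doses; in AMO1 7164, 3386 and 2482; for the line difference 4390 at 1000 nM and 797 at 100 nM. Without the filter the counts were 1153, 674 and 9 in XG1, and 1944 at 100 nM and 521 between the doses in AMO1. On the relative scale they were 115 and 627 between the doses of XG1 and AMO1, and 2136 and 1228 for the line difference at 1000 and 100 nM. A prior without trend gave 4 between the XG1 doses. Leaving out 1 library gave 1047 to 2619 and 571 to 1876 in XG1 at 1000 and 100 nM and 2 to 82 between its doses, 6067 to 7201, 1812 to 5057 and 519 to 3437 in AMO1, and 3227 to 4824 and 430 to 1390 for the line difference at 1000 and 100 nM. The cause was not tested.

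Replicate numbers did not pair the samples: deviations of same-numbered libraries correlated at −0.0441 to 0.157 in XG1 (6 of 9 best with their own number) and −0.178 to 0.125 in AMO1 (2 of 9). With the number as a replicate block, 1461 genes were called between the AMO1 doses, and no call of the 8 genes within a line, or of GYPC, ANK1 and EPB41 in the line difference, changed.

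Unknown depth limits low genes such as RHCE, for which no counting error can be given. The GYPC calls in AMO1 held under every alternative. RHCE was lost at 100 nM without the filter (adjusted p = 0.161) and with a prior without trend (0.0532), and GYPC in the line difference at 100 nM without the filter (0.0603). Signs of uncalled changes turned on the relative scale for GYPB (0.129 and 0.0813) and GYPC (0.0839 at 1000 nM) in XG1, for EPB41 at 1000 nM (0.21), and for GYPC (0.0479), ANK1 (0.202) and EPB41 (0.211) between the doses in AMO1, and for ANK1 in the line difference at 100 nM (−0.056). With a pseudocount of 0.1 they turned in the line difference for GYPB, which entered it through XG1 alone, at 1000 nM (0.0701) and for ANK1 (−0.0471) and EPB41 (0.0258) at 100 nM. Without 1 library, uncalled changes also turned in XG1 at 100 nM for GYPB (−0.241 to 0.0456), GYPC (−0.0794 to 0.147) and GYPE (−0.602 to 0.0171), between its doses for GYPB (−0.105 to 0.182) and GYPE (−0.569 to 0.0504), in AMO1 for ANK1 at 1000 nM (−0.0545 to 0.136) and EPB41 between the doses (−0.19 to 0.0357), and in the line difference for GYPB (−0.253 to 0.169 at 1000 nM, −0.433 to 0.117 at 100 nM), ANK1 (−0.0916 to 0.238 at 100 nM) and EPB41 (−0.349 to 0.00698 and −0.245 to 0.216).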
